A study of Mus musculus with 8 samples.

Results

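The genes described here encode the working parts of the lysosome: soluble hydrolases and their cofactors, proteins of the lysosomal membrane, 1 enzyme that tags hydrolases for delivery, 1 transcription factor, and the vacuolar proton pump. They were chosen by name, as a list of 46 mouse genes. No measured value is part of that rule, but the list was chosen with earlier results of these data known. Of the 46, 44 were named on the array, and 41 passed the filter on dim genes and were tested, among 30741 genes named and 18243 tested in all. Glb1 and Atp6v0c were not named from a row with a single gene symbol and were not analysed here. Arsa, Sgsh and the pump subunit Atp6v0d2 were below the filter on all 8 arrays, so the counts below leave them out. Among the 41, Gla passed the filter only on the icKO EAE and icKO p50 arrays and Neu1 only on the 2 EAE arrays; both entered through the groups where they are high, so their differences are descriptions and support nothing.

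Lysosomes break down what a cell takes up or discards, and in microglia, the resident phagocytes of the central nervous system, they receive myelin debris and dying cells. Most soluble hydrolases are made in the endoplasmic reticulum, are given a mannose phosphate tag in the Golgi and are carried to the lysosome by receptors that read the tag. The vacuolar ATPase acidifies the lumen: its V1 sector faces the cytosol and splits ATP, and its V0 sector forms the proton channel in the membrane. TFEB and its relatives switch on many lysosomal genes together when they move into the nucleus.

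The samples were microglial RNA from the central nervous system of C57Black/6J mice, hybridised to Affymetrix whole-transcript arrays; each of 8 groups is a single array. The control genotype (FL or F/F in the labels, also given as wt for the iguratimod array) and icKO, a conditional knockout in oligodendroglia, were each profiled in 4 states: naive; EAE, experimental autoimmune encephalomyelitis, an induced autoimmune disease of the central nervous system; EAE with iguratimod (IGU), an anti-rheumatic small molecule; and EAE labelled p50, a term the labels do not explain. The labels give no age, sex, dose, day of sampling, number of animals per array, or Cre driver. The genotype labels were not checked against these arrays. Values below are levels, log2(intensity + 16), or differences of such levels, which understate the change of dim genes. A difference is given with its standard error from a limma fit of state and genotype without interaction over all 8 arrays, and it is called at a Benjamini-Hochberg adjusted p below 0.05 over the 18243 genes. With 1 array in a group the p-values measure only the spread between these arrays, and pairs of single arrays have no test.

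All 11 microglial markers that were named lay above the filter, with summed intensities from 513700 to 760500, whereas 9 of 10 oligodendrocyte markers and 8 of 8 neuronal markers were below it. The microglial list itself differed between states. For EAE against naive its median difference was -0.43, with 6 of 11 lower in both genotypes, beside 28.9% of all genes. For p50 against EAE the median was 0.79, with 10 of 11 higher in both genotypes, beside 32.7% of all genes. Of the 11, Tmem119 was called higher, beside 1.09% of all genes. Other marker lists also moved between the arrays. The summed intensity of 12 neutrophil genes was 900600 on the control EAE array and 103400 on the icKO EAE array, 41430 and 133000 with iguratimod, 26580 and 6936 in the naive state, and 6668 and 13550 on the p50 arrays, and 3 of the 12 (Mmp9, Elane and Mpo) were below the filter throughout. For 10 monocyte genes the sums were 27420 and 28580 with EAE, 5735 and 12820 with iguratimod, 3747 and 2961 in the naive state, and 4010 and 4941 on the p50 arrays. Of the 9 monocyte genes tested, 4 were called higher for EAE against naive (Ly6c2, Ms4a4c, Chil3 and Thbs1), beside 3.33% of all genes. For p50 against EAE, 1 of the 9, Ly6c2, was called lower, beside 1.62% of all genes. A list of 11 immediate early and heat shock genes, which respond to cell handling, ran from 33260 on the control EAE array to 444300 on the icKO p50 array. Xist, transcribed from the inactive X chromosome of female cells, reached 15.91 and 16.64 in the p50 pair, while the other 6 arrays read 7.71 to 8.30, so the p50 arrays differ from the rest in more than their label. The part of these differences in the results below was not tested. In RNA from many cells, more cells of a type and more RNA per cell cannot be told apart.

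Most lysosomal genes had higher levels in EAE than in naive microglia, in both genotypes, but only 1 of the 41 passed the test. Gnptab rose 3.56-fold, and 36 of 41 members were higher in both genotypes, a pattern shown by 34.6% of all genes tested. Gla and Neu1, which passed the filter only through arrays where they were high, are in this count and in that without overlap below. They add no support to either. Over all genes, 3.33% were called higher and 0.384% lower, so 1 member called of 41 is a share near the background. Below an unadjusted 0.05, 20 members were higher and 1 lower (Arsb), beside 13% and 6.16% of all genes. Gla is among the 20 and adds no support there either. The levels of 33 members did not overlap between the 2 EAE and the 2 naive arrays on the higher side, against 29.5% of all genes, and 2 members, Arsb and Tfeb, did not overlap on the lower side, against 22.5%. The median difference of the members was 0.47, and that of all genes was 0.01. Bright genes as a whole were higher in EAE: among 4382 genes with a mean level above 10 the median difference was 0.15, and it was 0.59 for the 26 members among them. Of those 26 members, 21 did not overlap on the higher side, beside 44.2% of the bright genes; this comparison was added after the data were seen. A further quantile normalization lowered the members' median to 0.33 and turned 6 of 41 to the opposite direction (Laptm4a, Laptm5, Atp6ap2, Atp6v0b, Tpp1 and Smpd1).

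**Figure D1:**
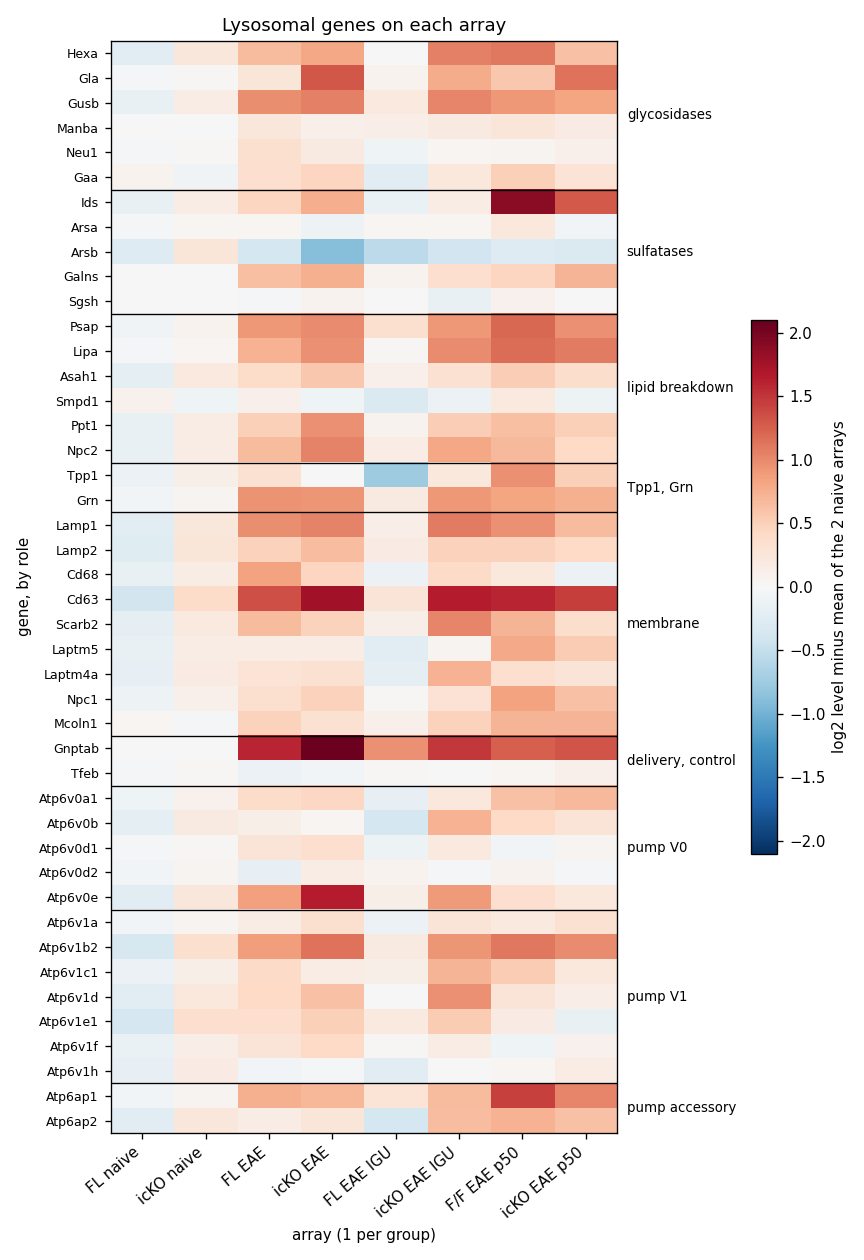
Level of each of the 44 lysosomal genes named on the array (rows, by role) on each of the 8 arrays (columns, 1 array per group), as the log2 level minus the mean of the 2 naive arrays; red is higher and blue lower. Gnptab and Cd63 are red on the EAE and p50 arrays of both genotypes, Ids is deepest red on the p50 arrays, Arsb is blue on every array with EAE, and the control iguratimod array is paler than the icKO one.

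Gnptab encodes the catalytic subunits of the Golgi phosphotransferase that starts the mannose phosphate tag on lysosomal hydrolases. Its level was 8.41 on the control naive array and 8.40 on the icKO naive array, 10.01 and 10.47 with EAE, 9.36 and 9.89 with EAE and iguratimod, and 9.67 and 9.73 on the p50 arrays. The naive arrays were the 2 lowest of the 8 in this gene, and the EAE arrays the 2 highest. It rose with EAE by 1.83 ± 0.18 (limma, adjusted p = 0.0197), by 1.59 in the control and 2.07 in the icKO pair. Its adjusted p ran from 0.0122 to 0.124 over 17 alternative settings and was below 0.05 in 13 of them; it missed the threshold when any 1 of the 4 naive and EAE arrays was left out, and then no gene of the array was called. Tfeb, the transcription factor, went the other way by little: its level was 8.26 and 8.30 in the naive state, 8.16 and 8.21 with EAE, 8.31 and 8.27 with iguratimod, and 8.31 and 8.39 on the p50 arrays. The difference of -0.09 ± 0.12 with EAE did not pass (adjusted p = 0.708).

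Among the glycosidases, which strip sugars from glycolipids and glycoproteins, all 6 tested were higher with EAE in both genotypes and none passed the test, with differences from 0.17 (Manba, beta-mannosidase) to 1.01 (Gusb, beta-glucuronidase; SE 0.23, adjusted p = 0.0796). Gla and Neu1 are among the 6 and add no support, since they passed the filter only through arrays where they were high. Hexa, the alpha subunit of the hexosaminidase that degrades gangliosides, was at 12.98 and 13.46 on the naive arrays, 13.89 and 14.04 with EAE, 13.23 and 14.27 with iguratimod, and 14.33 and 13.84 on the p50 arrays. The EAE and naive levels of Hexa did not overlap, and the difference of 0.74 ± 0.34 did not pass (adjusted p = 0.313). Gla, alpha-galactosidase A, was at 7.23 and 7.29 in the naive state, 7.52 and 8.57 with EAE, 7.33 and 8.05 with iguratimod, and 7.82 and 8.40 on the p50 arrays. Both naive arrays and the control EAE array were below the filter in Gla, whose EAE difference was 1.28 in the icKO pair and 0.29 in the control pair. Gaa, which degrades glycogen, was at 8.93 and 8.79, then 9.22 and 9.32, 8.63 and 9.08, and 9.36 and 9.14 in the same order of states. Manba was the flattest of these: 9.05 and 9.02, 9.27 and 9.14, 9.17 and 9.23, and 9.29 and 9.21.

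The sulfatases, which remove sulfate from glycosaminoglycans and sulfatides, did not move together. Galns was at 8.27 and 8.24 in the naive state, 8.89 and 8.995 with EAE, 8.32 and 8.61 with iguratimod, and 8.72 and 8.96 on the p50 arrays. Its EAE difference of 0.69 ± 0.13 just missed the threshold (adjusted p = 0.0547); it was called when arrays were centred on their median and with a trended and robust prior. Arsb, arylsulfatase B, was lower with EAE: its level was 12.35 and 12.88 on the naive arrays, 12.25 and 11.71 with EAE, 12.07 and 12.21 with iguratimod, and 12.34 and 12.31 on the p50 arrays. All 6 arrays with EAE lay below both naive arrays in Arsb, the control p50 array by the least, and the EAE difference of -0.63 ± 0.25 did not pass (adjusted p = 0.25). The icKO pair differed by -1.16 and the control pair by -0.10, and Arsb was the only member with a 2-fold lower level with EAE in either genotype.

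Enzymes and carriers of lipid breakdown were higher with EAE in all 6 cases, again with no call. Psap, the precursor of the saposins that present sphingolipids to their hydrolases, was at 17.28 and 17.43 in the naive state, 18.27 and 18.35 with EAE, 17.70 and 18.27 with iguratimod, and 18.56 and 18.31 on the p50 arrays. Every array with EAE exceeded both naive arrays in Psap, and the EAE difference was 0.95 ± 0.20 (adjusted p = 0.0703). Lipa, lysosomal acid lipase, Npc2, the luminal cholesterol carrier, Ppt1, a thioesterase that removes palmitate from proteins, and Asah1, acid ceramidase, differed by 0.47 to 0.85. Smpd1, acid sphingomyelinase, differed by 0.01 ± 0.16: its levels were 9.05 and 8.88 in the naive state, 9.07 and 8.89 with EAE, 8.66 and 8.85 with iguratimod, and 9.17 and 8.87 on the p50 arrays. Grn, which encodes progranulin, a protein that lysosomes process into granulins, was higher with EAE by 0.94 ± 0.22 (adjusted p = 0.0828), by 1.002 in the control and 0.874 in the icKO pair. Tpp1, a lysosomal peptidase, was at 11.17 and 11.41 in the naive state, 11.61 and 11.28 with EAE, 10.54 and 11.51 with iguratimod, and 12.25 and 11.78 on the p50 arrays, and its genotype pairs differed in direction with EAE (0.44 and -0.13).

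All 9 membrane proteins were higher with EAE in both genotypes, and none passed. Cd63, a tetraspanin of lysosomes and late endosomes, was at 12.39 and 13.18 on the naive arrays, 14.13 and 14.54 with EAE, 13.05 and 14.44 with iguratimod, and 14.39 and 14.24 on the p50 arrays. Its EAE difference of 1.55 ± 0.34, or 2.94-fold, had an adjusted p of 0.0759, and only the control iguratimod array fell into the range of the naive arrays. Lamp1, a main glycoprotein of the lysosomal membrane, was higher by 1.01 ± 0.30 (adjusted p = 0.142), and Lamp2, its relative with a role in autophagy, by 0.56 ± 0.17 (adjusted p = 0.144). Cd68, a macrophage glycoprotein of late endosomes and lysosomes, was at 14.08 and 14.38 in the naive state, 15.08 and 14.69 with EAE, 14.11 and 14.63 with iguratimod, and 14.45 and 14.12 on the p50 arrays; its EAE difference was 0.997 in the control pair and 0.31 in the icKO pair. Scarb2, which carries glucocerebrosidase to the lysosome, Npc1, the cholesterol exporter, and Mcoln1, a calcium channel, differed by 0.40 to 0.57, and Laptm5 and Laptm4a by 0.16 and 0.30, the last pair turning under quantile normalization.

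The proton pump was uneven among its subunits. In the V1 sector, 6 of 7 tested subunits were higher with EAE in both genotypes, with a median difference of 0.34, and in the V0 sector 3 of 4. Atp6v0e, a small membrane subunit, was at 9.95 and 10.42 in the naive state, 11.05 and 11.84 with EAE, 10.31 and 11.08 with iguratimod, and 10.54 and 10.40 on the p50 arrays. Its EAE difference of 1.26 ± 0.25, or 2.40-fold, just missed the threshold (adjusted p = 0.055), and it was called with a filter at the 70th percentile and with arrays centred on their median. Atp6v1b2, the B subunit of the ATP-splitting head in most cells, was higher by 1.01 ± 0.23 (adjusted p = 0.083), with levels of 9.13 and 9.80 in the naive state, 10.34 and 10.61 with EAE, 9.65 and 10.39 with iguratimod, and 10.58 and 10.45 on the p50 arrays. Its partner in the head, Atp6v1a, differed by 0.24 ± 0.13: its levels were 8.59 and 8.71, 8.80 and 8.98, 8.53 and 8.92, and 8.86 and 8.96 in the order naive, EAE, iguratimod and p50. Atp6v1f, a subunit of the central stalk, was at 9.09 and 9.35, 9.48 and 9.65, 9.24 and 9.37, and 9.13 and 9.31. Atp6v1h, a regulatory subunit, was the 1 V1 subunit not higher in both genotypes, at 8.71 and 9.06, 8.83 and 8.87, 8.66 and 8.90, and 8.93 and 9.04.

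Of the d subunits, which join the sectors, Atp6v0d1, found in most cells, was at 9.28 and 9.32 in the naive state, 9.57 and 9.65 with EAE, 9.20 and 9.50 with iguratimod, and 9.25 and 9.36 on the p50 arrays. Atp6v0d2, known from osteoclasts and macrophages, stayed below the filter at 6.92 to 7.25. Atp6v0a1, the larger channel subunit, was at 10.09 and 10.28, 10.56 and 10.62, 10.01 and 10.41, and 10.80 and 10.87 in the same order, and was higher with EAE by 0.41 ± 0.14 (adjusted p = 0.186). Atp6v0b, a ring subunit, was at 11.93 and 12.31, 12.25 and 12.16, 11.76 and 12.86, and 12.54 and 12.38 in the order naive, EAE, iguratimod and p50. Atp6v1e1, of the outer stalk, was at 10.01 and 10.72, 10.71 and 10.86, 10.57 and 10.89, and 10.53 and 10.21. Among the accessory proteins, Atp6ap1 was at 10.67 and 10.80 in the naive state, 11.48 and 11.44 with EAE, 11.02 and 11.41 with iguratimod, and 12.17 and 11.76 on the p50 arrays, so every array with EAE exceeded both naive arrays.

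**Figure D2:**
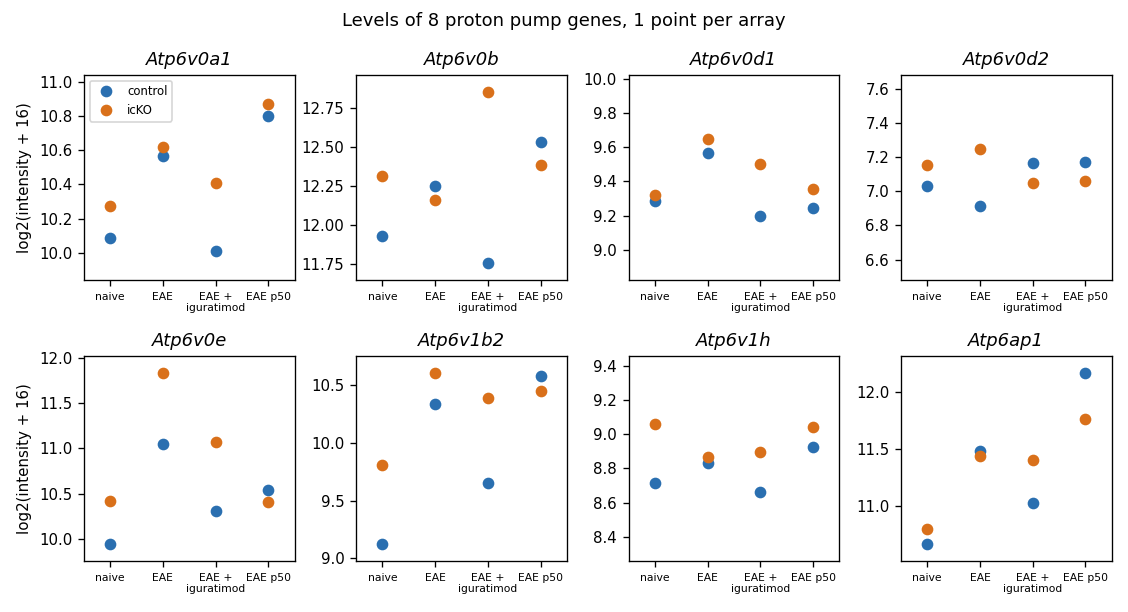
Levels, log2(intensity + 16), of 8 proton pump genes on each array (1 point per array, blue control and orange icKO) across the 4 states; each panel has its own vertical axis, which does not start at 0. Atp6v0e is highest on the icKO EAE array, Atp6ap1 on the 2 p50 arrays, Atp6v0b on the icKO iguratimod array, and Atp6v0d2 stays between 6.92 and 7.25.

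Other genes of the same organelle were read from lists outside the 46. Over all genes tested, 3.33% were called higher with EAE, 0.384% were called lower, and 34.6% were higher in both genotypes. Of 11 tested cathepsins, the main lysosomal proteases, 2 were called higher with EAE, Ctsc (2.22 ± 0.31, adjusted p = 0.0284) and Ctsl (1.28 ± 0.22, adjusted p = 0.0412), with a list median of 0.55. Of 25 other hydrolases, 1 was called higher, Man2b1, the lysosomal alpha-mannosidase (1.08 ± 0.19, adjusted p = 0.043). Of 29 other membrane proteins none was called higher and 1 lower, Cd164, a sialomucin (-0.78 ± 0.13, adjusted p = 0.0361). All 15 sorting genes were higher in both genotypes with none called, led by the mannose phosphate receptor M6pr (1.02 ± 0.25, adjusted p = 0.0996) and the retromer subunit Vps29 (0.67 ± 0.21, adjusted p = 0.16). No gene was called with EAE among 5 other pump subunits (Atp6v0a2, 0.86 ± 0.21, and Tcirg1, 0.37 ± 0.19), 15 fusion and positioning genes (Rab7, 0.63 ± 0.21, and Vps41, 0.61 ± 0.22), 17 genes of mTORC1 and the TFE factors (Fnip1, 0.60 ± 0.25, and Lamtor5, 0.52 ± 0.21), or 16 autophagy genes (Gabarap, 0.84 ± 0.19, and Sqstm1, 0.39 ± 0.15), whose list medians were 0.35, 0.13, 0.17 and 0.17.

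Since many of these genes were higher together, their promoters were searched for the letters of the site that TFEB and its relatives bind, known as the CLEAR element. RefSeq sequences (build GRCm38.p6), in windows of 300 bases that end shortly after a gene's start, were matched for 39 of the 46 genes. All motifs searched are palindromes, so both strands were covered. The longest, TCACGTGA with a G before it and a C after it, was found in 0 of 39 members and in 0.37% of all genes in the table. Its inner letters TCACGTGA were found in 5 of 39 members (12.8%) and 1.12% of genes, and the E-box core CACGTG, which lies within both, in 11 of 39 members (28.2%) and 8.09% of genes. The stretches below, 5′ to 3′ on the gene's strand and wholly upstream of the start, are those with the densest or longest matches, in capitals: Lamp1 (chr8:13159085-13159160, plus strand) holds 4 cores, Mcoln1 (chr8:3500433-3500494, plus strand) and Atp6v0b (chr4:117887330-117887380, minus strand) hold 2, and Gla (chrX:134601179-134601247, minus strand) and Atp6v1a (chr16:44139370-44139405, minus strand) hold the inner letters 2 times and 1 time.
Lamp1: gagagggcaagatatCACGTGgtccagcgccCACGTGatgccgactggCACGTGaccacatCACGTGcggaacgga
Mcoln1: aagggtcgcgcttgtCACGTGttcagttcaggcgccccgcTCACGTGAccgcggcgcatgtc
Atp6v0b: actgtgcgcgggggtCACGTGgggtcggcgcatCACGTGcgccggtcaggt
Gla: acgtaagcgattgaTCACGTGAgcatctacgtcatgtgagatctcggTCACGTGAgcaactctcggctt
Atp6v1a: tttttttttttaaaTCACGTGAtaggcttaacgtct

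The EAE differences of members with and without the core overlapped. The 8 tested members with a core had a median EAE difference of 0.40, from 0.08 (Atp6v0b) to 1.26 (Atp6v0e), and the 27 tested members with a matched promoter and no core had a median of 0.56, from -0.63 (Arsb) to 1.83 (Gnptab). Lamp1, with 4 cores, differed by 1.01, and Atp6v1a, with the inner letters, by 0.24. A match of letters is a description of the window and not evidence of binding.

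**Figure D3:**
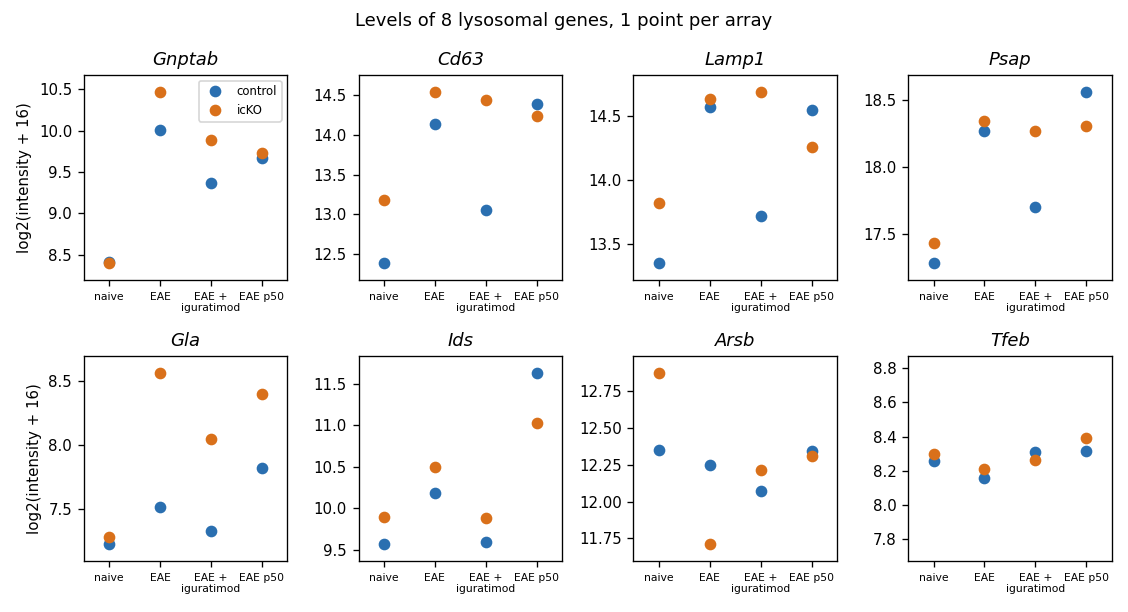
Levels, log2(intensity + 16), of 8 lysosomal genes on each array (1 point per array, blue control and orange icKO) across the 4 states; each panel has its own vertical axis, which does not start at 0. Gnptab, Cd63, Lamp1 and Psap are higher on both EAE arrays than on both naive arrays, and in these 4 the control iguratimod array lies nearer the naive arrays than the icKO one does; Ids is highest on the p50 arrays, Arsb is lowest on the icKO EAE array, and Tfeb spans 8.16 to 8.39.

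Taken by genotype, EAE against naive gave a median difference of 0.59 over the 41 members in the control pair and 0.36 in the icKO pair, with all-gene medians of 0.02 and 0.03. In the control pair 7 members were at least 2-fold higher (Gusb, Grn, Lamp1, Cd63, Gnptab, Atp6v0e and Atp6v1b2), against 4.59% of all genes, and in the icKO pair 4 (Gla, Cd63, Gnptab and Atp6v0e), against 4.72%. The difference between the genotypes' EAE changes was tested with 1 residual degree of freedom, a weak test, and no gene of the array was called (0.0% higher and 0.0% lower; lowest adjusted p over all genes 0.529, and 1134 genes below an unadjusted 0.05). The largest such differences among the members, icKO minus control, were -1.06 for Arsb and 0.99 for Gla, which entered through its high icKO arrays, and the lowest adjusted p among members was 0.721.

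Iguratimod in EAE was next compared with EAE alone, which asks whether the drug alters the disease state of these cells. The EAE arrays are those already compared with naive. A level that is high on them by accident raises that difference and lowers this one, so the falls below are not independent of the rises above. No gene passed the test (0.0% of all genes called in either direction; lowest adjusted p 0.508, and 1552 genes below an unadjusted 0.05). The members' median difference was -0.26, with all genes at -0.01 and the 4382 bright genes at -0.09. In both genotypes 25 of 41 members were lower, beside 26.8% of all genes, and 16 did not overlap on the lower side, beside 18.9%. Neu1 is in both counts and Gla in the first, and both passed the filter only through arrays where they were high. Among the 26 bright members, 15 were lower in both genotypes (57.7%, beside 36.0% of bright genes). Of these 26, 8 did not overlap on the lower side (30.8%), a share near the 27.5% of bright genes. The 3 members with the largest mean differences that kept one sign were Atp6v0e (-0.75 ± 0.25, adjusted p = 0.539), Gnptab (-0.61 ± 0.18, adjusted p = 0.53) and Ids (-0.60 ± 0.26, adjusted p = 0.61). Below an unadjusted 0.05, 4 members were lower (Galns, Gnptab, Atp6v0a1 and Atp6v0e), beside 5.58% of all genes, and none was higher, beside 2.93%. Tfeb was the 1 member higher in both pairs, beside 22.9% of all genes (0.10 ± 0.12, adjusted p = 0.859).

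The genotype pairs, each 1 array minus 1 array, differed in how many members were lower under iguratimod. Genes read on the same arrays are not replicates. In the control pair 40 of 41 members were lower than with EAE alone and 1 was higher, beside 49.2% of all genes higher, with a median of -0.50, and Tpp1 (-1.07) and Cd63 (-1.08) were at least 2-fold lower, against 1.70% of all genes. In the icKO pair 25 of 41 were lower and 16 higher, beside 46.7% of all genes higher, a share near the background; the median was -0.06 and no member reached 2-fold in either direction, against 0.691% of all genes higher and 1.52% lower. Gla and Neu1, which passed the filter only through arrays where they were high, are among those lower in each pair and add no support. Among the members with opposite signs were Scarb2 (-0.55 in the control pair and 0.55 in the icKO pair), Atp6v0b (-0.50 and 0.70) and Atp6ap2 (-0.52 and 0.39). Atp6v0e (-0.74 and -0.76), Ids (-0.59 and -0.61) and Gnptab (-0.64 and -0.58) had nearly the same values in both. The test of the difference between the genotypes' drug changes, again with 1 residual degree of freedom, called no gene (0.0% in each direction; lowest adjusted p 0.589, and 1524 genes below an unadjusted 0.05). That difference, icKO minus control, had a median of 0.36 over the members and was above 0 in 35 of 41, and the largest were Tpp1 (1.30 ± 0.44, adjusted p = 0.595) and Atp6v0b (1.19 ± 0.38, adjusted p = 0.589). The arrays compared here also differed in their neutrophil sums, which went from 900600 to 41430 in the control pair and from 103400 to 133000 in the icKO pair; their part in this result was not tested.

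Against naive microglia, iguratimod-treated EAE had 0 of 41 members called, and 1 gene of the array was called (0.00548% higher, 0.0% lower). Below an unadjusted 0.05, 5 members were higher (Gusb, Psap, Grn, Cd63 and Gnptab), beside 7.18% of all genes, and none lower, beside 3.76%. The median difference was 0.26 over the members, 0.12 in the control pair and 0.36 in the icKO pair. Gnptab (1.22 ± 0.18, adjusted p = 0.162), Cd63 (0.96 ± 0.35, adjusted p = 0.4) and Psap (0.63 ± 0.20, adjusted p = 0.349) had the largest differences of one sign, and Arsb (-0.47 ± 0.25), Smpd1 (-0.21 ± 0.16) and Atp6v1h (-0.11 ± 0.13) the lowest. This comparison shares the naive arrays with the first one and the iguratimod arrays with the second.

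**Figure D4:**
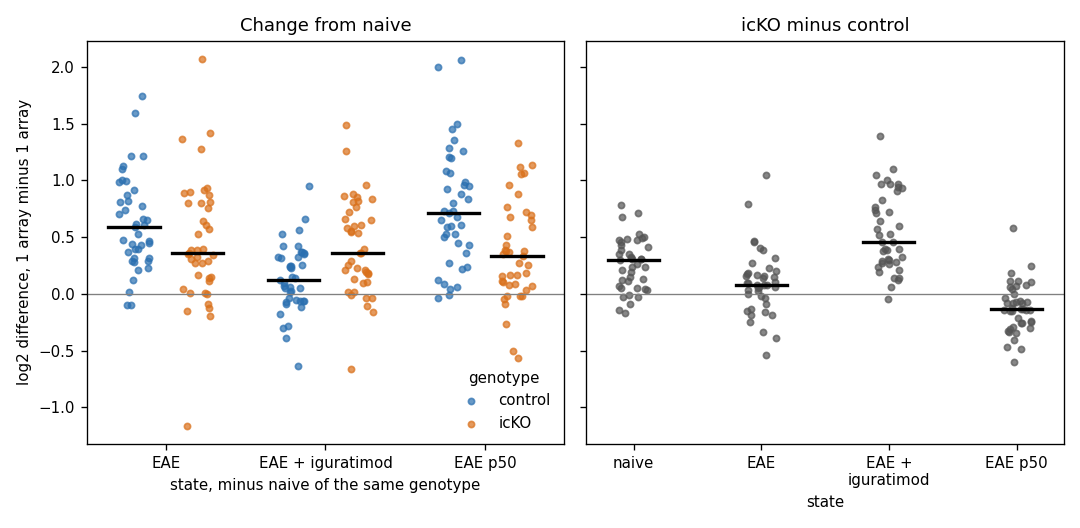
Log2 differences of the 41 tested members between single arrays (1 point per gene, black bars the medians). The left panel shows each EAE state minus naive of the same genotype, with medians of 0.59 and 0.36 for EAE, 0.12 and 0.36 with iguratimod, and 0.71 and 0.34 for p50 (control in blue, icKO in orange). The right panel shows icKO minus control within each state, with medians of 0.30, 0.08, 0.46 and -0.13.

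The p50 arrays were compared with naive and with EAE microglia, on the same naive and EAE arrays as above. Against naive, Gnptab was again the 1 member of 41 called (1.29 ± 0.18, 2.45-fold, adjusted p = 0.0496), while 0.367% of all genes were called higher and 0.428% lower. This call was close to the threshold: the adjusted p ran from 0.0325 to 0.243 over 16 alternatives and was below 0.05 in 6. Leaving out an iguratimod array gave Lipa as the 1 member called, and leaving out the icKO p50 array gave Ids. The median difference was 0.55 over the members and 0.01 over all genes, 32 of 41 members did not overlap on the higher side beside 31.6% of all genes, and Arsb did not overlap on the lower side (-0.29 ± 0.25, adjusted p = 0.566), beside 26.9%. Gla, which passed the filter only on the icKO EAE and icKO p50 arrays, is among the 32. Without the control p50 array the members' median was 0.25. Ids, the iduronate sulfatase, had the largest value: its level was 9.57 and 9.89 in the naive state, 10.18 and 10.497 with EAE, 9.59 and 9.89 with iguratimod, and 11.63 and 11.03 on the p50 arrays. That difference of 1.60 ± 0.26 from naive, 3.02-fold, did not pass (adjusted p = 0.0651), nor did those of Cd63 (1.53 ± 0.34, adjusted p = 0.0981) and Atp6ap1 (1.23 ± 0.20, adjusted p = 0.0673). In the control pair 11 members were at least 2-fold higher, against 3.02% of all genes, and in the icKO pair 5 (Gla, Ids, Lipa, Cd63 and Gnptab), against 3.20%.

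Against EAE without the p50 label, none of the 41 members was called, whereas 1.09% of all genes were called higher and 1.62% lower. The members split, with a median of 0.02: 13 did not overlap on the higher side and 12 on the lower, beside 26.4% and 30.9% of all genes. By genotype pair, 15 members were higher in both, beside 32.7% of all genes, and 13 lower in both, beside 37.4%. Neu1, which passed the filter only on the EAE arrays, is among the 12 and the 13 on the lower side. It adds no support to either count. Higher on both p50 arrays were Ids (0.99 ± 0.26, adjusted p = 0.11), Tpp1 (0.57 ± 0.35, adjusted p = 0.435) and Atp6ap1 (0.51 ± 0.20, adjusted p = 0.247). Lower on both were Atp6v0e (-0.97 ± 0.25, adjusted p = 0.105), Cd68 (-0.60 ± 0.26, adjusted p = 0.273) and Gnptab (-0.54 ± 0.18, adjusted p = 0.175). The 5 members on the X chromosome (Gla, Ids, Lamp2, Atp6ap1 and Atp6ap2) had a median of 0.47 against EAE and the 36 others 0.00, and 0.85 and 0.49 against naive; Xist also differed between these arrays, and its part was not tested. Among the other lysosomal lists, 1 gene was called against EAE, Rptor, a subunit of mTORC1 (1.02 ± 0.14, adjusted p = 0.0264).

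Between the genotypes, over the 4 states, no gene of the array was called (0.0% of all genes in each direction; lowest adjusted p 0.862, and 991 genes below an unadjusted 0.05). The members' median difference, icKO minus control, was 0.19, with all genes at -0.02, and 39 of 41 were above 0 on average. In all 4 states 6 members were higher in icKO, 14.6% of those tested beside 4.90% of all genes: Gla, an X-linked glycosidase, and the pump subunits Atp6v0a1, Atp6v0d1, Atp6v1a, Atp6v1f and Atp6v1h. The pump subunits differed by 0.13 to 0.20. Among the 26 members with a mean level above 10, only 1, Atp6v0a1, was higher in all 4 states (3.85%, beside 6.02% of genes that bright). Gla differed by 0.60 ± 0.17 (adjusted p = 0.882), but it was below the filter on all 4 control arrays and passed only through 2 icKO arrays. No member was lower in all 4 states, beside 7.92% of all genes, and none separated the genotypes without overlap, beside 0.367% of all genes higher and 0.8% lower. Below an unadjusted 0.05, 3 members were higher, Gla, Cd63 (0.61 ± 0.24) and Atp6v0e (0.47 ± 0.17), beside 1.92% of all genes, the last 2 higher in icKO in 3 of 4 states. None was lower, beside 3.51%.

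The 4 genotype pairs did not give the same picture. In the naive pair the members' median was 0.30 and no member reached 2-fold, beside 0.263% of all genes at least 2-fold higher and 1.64% lower; Cd63 (0.79) and Atp6v1e1 (0.71) were the highest and Smpd1 (-0.17) and Gaa (-0.14) the lowest. In the EAE pair the median was 0.08; Gla (1.04), the 1 member at least 2-fold higher beside 1.28% of all genes, and Atp6v0e (0.79) were the highest, Gla being below the filter on the control array of this pair, and Arsb (-0.54) and Cd68 (-0.39) the lowest. In the iguratimod pair 40 of 41 members were higher in icKO, beside 47.6% of all genes, the median was 0.46, and 4 were at least 2-fold higher beside 1.27% of all genes: Cd63 (1.39), Atp6v0b (1.10), Hexa (1.05) and Atp6ap2 (1.01); Tfeb (-0.04) and Manba (0.06) were the lowest. In the p50 pair 31 of 41 were lower in icKO and 10 higher, beside 45.1% of all genes higher, and the median was -0.13; Gla (0.58) and Galns (0.25) were the highest and Ids (-0.60) and Hexa (-0.49) the lowest, with none at 2-fold beside 0.291% of all genes higher and 0.0932% lower. Gla was below the filter on the control array of the p50 pair too. The control array of the iguratimod pair is also the one on which 40 of 41 members were lower than on the control EAE array. Those 2 counts are therefore not independent. Without either iguratimod array the fitted median over the states was 0.08. These are differences between 1 array and 1 array, and the 11 immediate early and heat shock genes were higher in icKO on average in the same fit (median 1.07), whose part here was not tested.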

How the data were processed

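Microglial RNA was isolated with TRIzol, purified with a total RNA column kit and labelled through the GeneChip WT Pico kit, per the labels' protocols. The table deposited by the authors holds linear intensities for 65956 rows on 8 arrays; Affymetrix Expression Console is named in the submitters' processing notes, and the summary method, normalization and genome build are not given in the sources used here. Array medians ran from 243 to 269. Precision is limited by there being 1 array per group.

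Rows were named through the platform annotation, updated with RefSeq (GRCm38.p6): 31217 rows had 1 gene symbol, 1533 several (left out) and 33206 none. For 367 genes with several probe sets, Arsb among them, the brightest was used. Levels are log2(intensity + 16), not normalized again here. Testing was limited to genes that any array placed above the median of that array's named rows, and used limma 3.58.1 (R 4.3.3) in an additive model of state and genotype (3 residual degrees of freedom), with Benjamini-Hochberg adjustment; the code was tested on simulated data. Differences of at least 2-fold between single arrays were counted without a test.

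Groups came from the labels. The targeted gene is not reported here. The members, lists and tests were chosen with earlier results of these data known. Members given with all array values were those called, the 3 largest differences of one sign in each direction of each comparison, the 2 highest and lowest of each genotype pair and the pump's subunit paralogs; others named with values (Gusb, Grn, Lamp1, Lamp2, Atp6ap2, Scarb2, and those in ranges) were added after their values were seen. Of the other lists, called genes or the 2 largest of one sign were named. Marker lists for border macrophages, lymphocytes, astrocytes and endothelial cells were also summed, with ranges of 2062 to 2764, 2045 to 2739, 1872 to 2449 and 2102 to 3571. Alternatives were other filters, normalizations, pseudocounts, probe set rules and priors, and leaving out arrays.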

Additional observations from a re-analysis of the deposited data

Results flagged for a closer look

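Each of these results had opposite signs in groups under the same contrast, with both values beyond the standard error of the fitted difference for single genes, a limit set after the values were seen; each value is a difference between 1 array and 1 array. Under iguratimod against EAE, 7 members were lower in the control pair and higher in the icKO pair. Scarb2, the carrier of glucocerebrosidase, had -0.55 and 0.55, and Laptm4a, a membrane protein, had -0.50 and 0.41. Mcoln1, the calcium channel, had -0.37 and 0.17. The pump genes Atp6v0b (-0.50 and 0.70), Atp6v1c1 (-0.29 and 0.56), Atp6v1d (-0.41 and 0.33) and Atp6ap2 (-0.52 and 0.39) completed the 7. The test of the genotype difference of this change, with 1 residual degree of freedom, called none of them, the lowest adjusted p being 0.589.

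Under iguratimod against naive, Gaa had -0.30 in the control pair and 0.29 in the icKO pair. Under p50 against naive, Cd68 had 0.36 and -0.27 and Atp6v1e1 had 0.53 and -0.51. The members' median under p50 against EAE was 0.10 in the control pair and -0.09 in the icKO pair. The median of icKO minus control was 0.296 in the naive pair, 0.082 in the EAE pair, 0.457 in the iguratimod pair and -0.13 in the p50 pair. The differences named in this paragraph were not tested between the groups.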

How the results depend on the processing

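No paired analysis was possible because each group holds 1 array and the labels give no replicate numbers. The count of members called with EAE against naive, 1 in the main analysis, was 4 with the 70th percentile filter, 3 with arrays centred on their median, 2 with a trended and robust prior and 2 without both p50 arrays, and it ran from 0 to 3 when arrays were left out in turn; it was 0 whenever a naive or an EAE array of either genotype was missing. The 4 were Atp6v0e, Cd63, Gnptab and Psap. No share of all genes called is given for the alternatives, here or for p50 below. The counts therefore cannot be set against a background. For p50 against naive the count of 1 was 0 with no filter, 3 with the 70th percentile filter, 3 with arrays centred and 0 with a pseudocount of 64, and ran from 0 to 1 over the arrays left out; it was 0 without either naive array, either EAE array or the control p50 array. The other counts of members called, and those for the 2 genotype differences, were 0 under every alternative run. Leaving out arrays moved the members' median between 0.071 and 0.472 for iguratimod against naive (0.071 without the icKO and 0.472 without the control iguratimod array), between 0.25 and 0.72 for p50 against naive and between -0.17 and 0.18 for p50 against EAE, where the control p50 array gave the lowest and the icKO p50 array the highest when left out. For iguratimod against EAE the median ran from -0.47 to -0.04, the latter without the control iguratimod array. Among named members, Atp6v1h under iguratimod against naive ran from -0.218 to 0.001 and Arsb under p50 against naive from -0.621 to 0.048, both turning without the icKO naive array. With only the 26 members with a mean above 10, an alternative added after the data were seen, no median moved by more than the spread between pairs.

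Counts of members at 2-fold between single arrays changed with the threshold. At 1.5-fold they were 21 (control) and 16 (icKO) for EAE against naive, 13 and 3 for iguratimod against EAE, 3 and 16 for iguratimod against naive, 26 and 13 for p50 against naive, 5 and 5 for p50 against EAE, and, for icKO against control, 3 naive, 2 with EAE, 17 with iguratimod and 1 with p50. Rises and falls are counted together. For p50 against EAE the control count held Ids (1.45) and Cd68 (-0.63), and the icKO count Arsb (0.596) and Atp6v0e (-1.435). Against naive, the icKO counts held falls of Arsb with EAE (-1.16) and iguratimod (-0.66), and the control iguratimod count a fall of Tpp1 (-0.63). The 1 member counted for icKO against control with p50 was a fall, Ids (-0.60). At 2-fold after quantile normalization the counts were 3 for EAE against naive, 0 for iguratimod against EAE, 1 for iguratimod against naive and 7 for p50 against naive in the control pairs, and 0 for icKO against control with EAE. With arrays centred on their median the count for icKO against control with iguratimod was 9. The cause of these changes was not tested. No share of all genes is given for these alternatives, so the counts show dependence on processing and are not read as results about the members. Signal over background is unknown, so dim members such as Gla, Tfeb and Atp6v0d2 are less certain than bright ones.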
